A study of Oryza sativa with 9 samples.

Results

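In chilled rice shoots, 52 of 55801 counted loci differed strongly from WT in libraries labelled osdreb2b while staying close to WT in libraries labelled ossro1c. Of these, 39 were higher and 13 were lower under the osdreb2b label. They were chosen by their mean expression values in the same libraries. CPM, a locus's counts scaled to a common library total (counts per 1e6), was averaged over the 3 libraries of each genotype and 0.1 CPM was added to each mean. A locus entered if its highest genotype mean, before that addition, was at least 10 CPM, if its osdreb2b/WT ratio was at least 6 or at most 1/6, and if its ossro1c/WT ratio lay between 1/1.5 and 1.5. The levels and ratios of these loci are therefore a description of what was selected, and the calls given for them below are no test of the selection.

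RNA was sequenced from whole shoots of seedlings with 4 leaves, all in the ZH11 background and all held at 4 °C for 2 d. The 9 libraries were labelled as 3 groups of 3, an osdreb2b knockout, an ossro1c knockout and WT. No unchilled plants were among the 9 libraries, so every difference is between genotypes in the cold. The labels name neither the alleles nor the number of independent lines, and they do not say whether replicates were separate plants or pools. Any p-value therefore weighs a difference between groups only against the spread among these samples.

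OsDREB2B is a transcription factor of the AP2/ERF class that binds dehydration-responsive elements, and OsSRO1c belongs to the plant SRO proteins, which resemble poly(ADP-ribose) polymerases in one domain. The series title and design text treat both as partners in a complex that acts under cold, with transcripts lower in both mutants as its candidates. The loci here were chosen for a strong change under a single label, not as such candidates. Whether any belong to that set is not read here, since the ossro1c/WT ratio was used in the selection. Of the 13 lower members, 10 were also called lower in ossro1c. That count comes from the fit described below, which called 31.4% of all tested loci lower, and it was 5 on raw library totals. Chilling of rice is known to hold back chlorophyll synthesis and greening and to call on jasmonate signalling through the JAZ repressors. It is also known to draw on trehalose metabolism and on heat shock factors. Named members other than PCF3 fall in these areas. The gene lists that supplied the names included these areas, so nothing is read from that.

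The transcripts of the targeted genes did not all follow the labels. OsSRO1c (LOC_Os03g12820, chromosome 3) had 128, 134 and 136 CPM in libraries labelled osdreb2b, 431, 471 and 494 CPM in libraries labelled ossro1c, and 1857, 1827 and 1839 CPM in WT. OsDREB2B (LOC_Os05g27930, chromosome 5) had 316, 298 and 309 CPM under the osdreb2b label, 75.0, 68.7 and 87.4 CPM under the ossro1c label, and 150.3, 150.2 and 155.6 CPM in WT. OsSRO1c was lower than in WT under its own label (ratio 0.253) but lowest under the other gene's label. OsDREB2B was higher than in WT under its own label and lower under the other gene's, with no overlap between groups for either gene. The alleles are not named, so these levels cannot show whether a label is wrong, and that was not tested. The genotype names below are those of the labels, and each direction belongs to the libraries that carry them.

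Library totals ran from 58398026 to 69336224 counts. Replicate 3 of ossro1c stood apart, with a chi-square per locus of 83.1 and 82.8 against its replicates, where the other pairs of replicates gave 8.54 to 14.4. Over the 52 members it was the highest of the 3 ossro1c libraries for 30 and the lowest for 13. Without it the same rule took 40 loci higher in osdreb2b, 34 of them among the 39, and 11 lower, 10 of them among the 13. Shoot identity was checked with markers. Green leaf markers (5 loci, namely 2 of the Rubisco small subunit, whose names could not be checked, the antenna genes CAB1R and CAB2R, and Rubisco activase) summed to between 27640 and 29310 CPM in osdreb2b, 15400 and 18560 CPM in ossro1c, and 10430 and 11190 CPM in WT. Root markers (4 loci) summed to 8.54 to 11.7 CPM in osdreb2b, 18 to 21.8 CPM in ossro1c and 2.22 to 2.80 CPM in WT, with 2 of the 4, LSI2 and IRT2, at 0 in all 9 libraries. Markers of dividing and meristem cells (5 loci) summed to 28.3 to 34.4 CPM in osdreb2b, 12.98 to 16.4 CPM in ossro1c and 9.12 to 11.9 CPM in WT, with OSH1 at 0 throughout. In osdreb2b most of the root sum came from LOC_Os02g51110 (osdreb2b/WT ratio 4.49), while LOC_Os03g46470 had a ratio of 0.597. Most of the dividing-cell sum there came from LOC_Os08g40170 (ratio 3.97). LOC_Os02g56130 had a ratio of 2.02, LOC_Os01g59120 0.745 and LOC_Os04g47580 0.925. In a wider list of such markers, 2 of 9 tested loci were higher in osdreb2b than in WT and 0 lower (median log2 fold change -0.09). Of the tested markers, 5 of 5 green leaf, 1 of 2 root and 2 of 4 dividing-cell loci were higher in osdreb2b than in WT and 0 were lower, where 29.9% of all tested loci were called higher and 29.6% lower. CAB2R is itself one of the 52. The part of these marker differences in the results below was not tested.

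The members were a small share of the strong osdreb2b differences. A ratio of at least 6 was reached by 280 of the 12605 loci with a mean of 10 CPM or more (2.22%), and a ratio of at most 1/6 by 414 (3.28%). Of the 280 higher loci, 220 (78.6%) were above the ossro1c window, 39 (13.9%) in it and 21 (7.5%) below it. Of the 414 lower loci, 6 (1.45%) were above the window, 13 (3.14%) in it and 395 (95.4%) below it. All 12605 loci divided into 33.6% above, 42.4% in and 24.0% below the window. Both ratios share the WT libraries, so the sides on which they fall are not independent of each other.

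**Figure D1:**
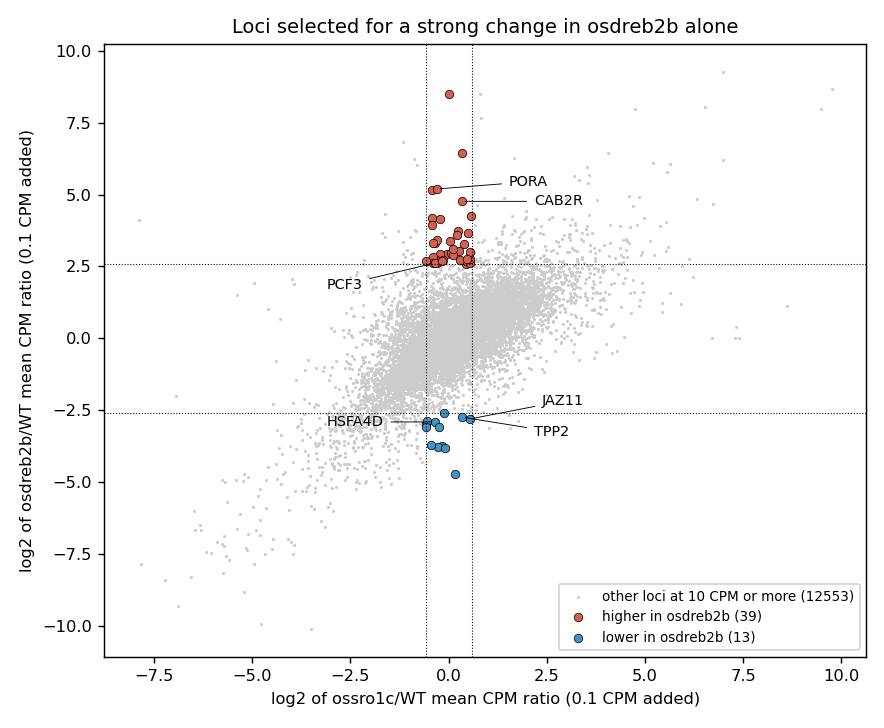
Each point is 1 of 12605 loci with a genotype mean of at least 10 CPM, by the log2 ossro1c/WT ratio (horizontal) and the log2 osdreb2b/WT ratio (vertical); dotted lines are the limits of selection. The 39 higher and 13 lower members fill the column between the vertical lines, outside the horizontal ones, and the 6 members with a name are marked.

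Within the members the osdreb2b libraries kept clear of the rest. For 38 of the 39 higher members all 3 osdreb2b libraries lay above all 6 others (19.0% of the 12605 loci did so), and for 13 of the 13 lower members they lay below all 6 (22.5%). In the edgeR fit described below, osdreb2b differed from WT for 51 of the 51 members tested (59.6% of all loci did). The selection used this contrast, and nothing is read from these counts. The exception was LOC_Os04g55159, described below. Among the 39 the osdreb2b/WT ratio ran from 6.07 to 361 with a median of 8.08, 15 being at 10 or more and 5 at 20 or more. Among the 13 the fold by which osdreb2b was lower ran from 6.02 to 26.4 with a median of 8.49, 5 of them at 10 or more. The 39 together took 0.868%, 0.805% and 0.861% of all counts in osdreb2b, 0.0572%, 0.0589% and 0.0647% in ossro1c, and 0.0572%, 0.0567% and 0.0582% in WT. The 13 took 0.0121%, 0.0117% and 0.0123% in osdreb2b, 0.0841%, 0.0827% and 0.0979% in ossro1c, and 0.0900%, 0.0893% and 0.0860% in WT. Spread among replicates, as the coefficient of variation, had a median over the 52 of 7.45% in osdreb2b, 15.7% in ossro1c and 5.88% in WT.

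**Figure D2:**
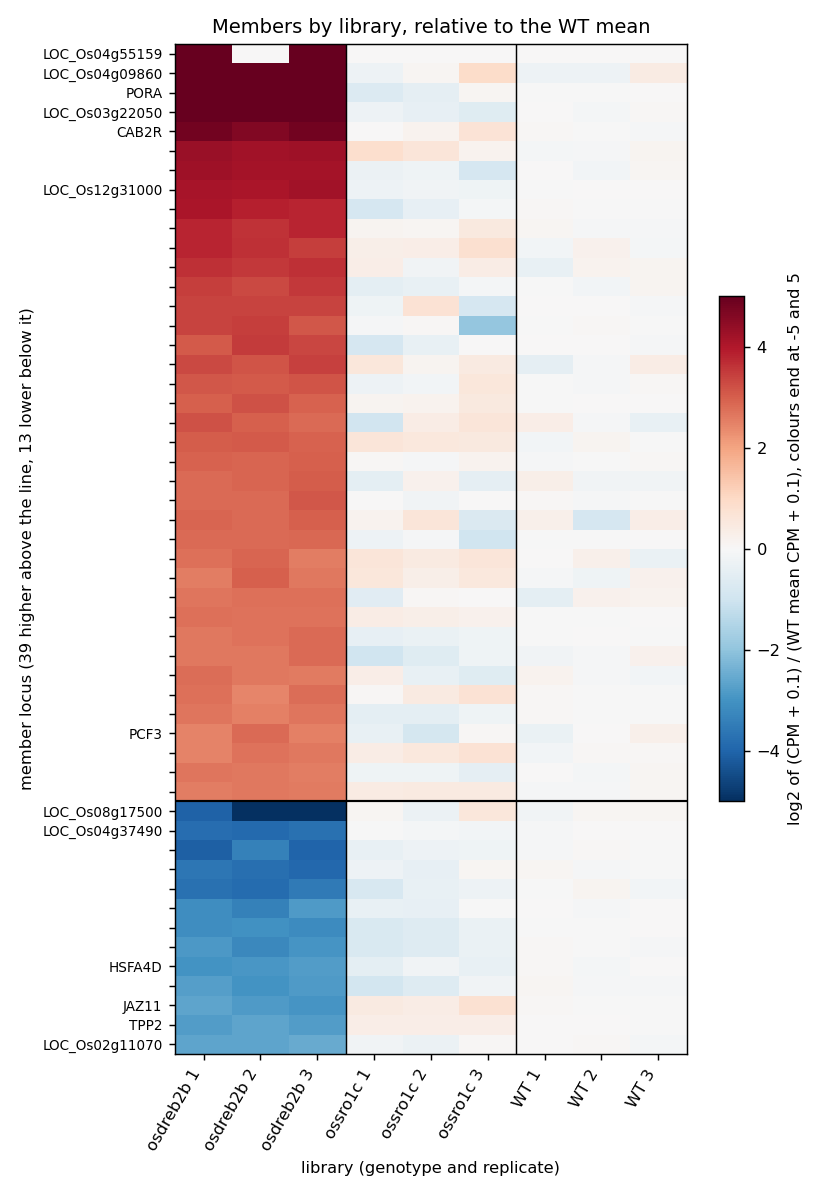
Each row is a member and each column a library, coloured by log2 of its CPM over the WT mean, with 0.1 CPM added to both. The osdreb2b libraries are red in the 39 upper rows and blue in the 13 lower rows, the single pale osdreb2b cell in the top row is LOC_Os04g55159 in replicate 2, and the ossro1c and WT libraries are mostly pale.

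Names are available for 6 members. The counts carry locus identifiers only, so names come from general knowledge of the rice genome and were kept where a gene of that symbol lies at the matching place on the same chromosome of a RefSeq gene table. PCF3 was looked up after the members were seen. The other 46 members have no name here, and those described below by identifier are the extremes of ratio and of level.

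PORA (LOC_Os04g58200, chromosome 4) encodes NADPH:protochlorophyllide oxidoreductase A, which carries out the light-dependent step of chlorophyll synthesis. Its level was 751, 725 and 758 CPM in osdreb2b, 12.7, 14.9 and 21.5 CPM in ossro1c, and 20.1, 20.2 and 20.4 CPM in WT. The osdreb2b libraries formed a tight group far above the rest, while ossro1c replicates 1 and 2 lay below WT and replicate 3 above it. PORA was 36.6-fold higher in osdreb2b than in WT, a log2 fold change of 5.06 (SE 0.17, edgeR on TMM-scaled counts), and its ossro1c/WT ratio was 0.809 on library totals and 0.651 on TMM scaling. In whole shoots, more cells that make a transcript and more transcript per cell cannot be told apart.

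CAB2R (LOC_Os01g41710, chromosome 1) encodes a chlorophyll a/b-binding protein of the photosystem II antenna. It had 2653, 2326 and 2639 CPM in osdreb2b, 93.8, 106.7 and 151.7 CPM in ossro1c, and 97.7, 91.9 and 90.4 CPM in WT. The osdreb2b libraries were again far above all others, and the ossro1c libraries overlapped WT, with replicate 3 the highest. The ratio to WT was 27.2 in osdreb2b (log2 fold change 4.63, SE 0.17) and 1.26 in ossro1c. Antenna genes are a family of close copies, and reads could be split between them in counting, so its level is less certain than its direction.

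PCF3 (LOC_Os11g07460, chromosome 11) is a member of the TCP family of plant transcription factors. It had 10.3, 12.9 and 10.6 CPM in osdreb2b, 1.32, 0.915 and 1.82 CPM in ossro1c, and 1.38, 1.76 and 2.08 CPM in WT. The osdreb2b libraries were above the rest, and ossro1c and WT overlapped. Its osdreb2b/WT ratio of 6.16 was close to the limit and its ossro1c/WT ratio was 0.788. On TMM scaling these ratios were 5.62 and 0.642, both outside the limits of selection. PCF3 met the rule in 6 of the 9 runs that left out 1 library each.

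HSFA4D (LOC_Os05g45410, chromosome 5), also known as SPL7, is a class A heat shock transcription factor whose loss is known to give spotted leaves in rice. It had 7.44, 7.90 and 8.52 CPM in osdreb2b, 42.7, 53.2 and 46.4 CPM in ossro1c, and 63.5, 56.2 and 61.2 CPM in WT. The 3 groups did not overlap, osdreb2b being lowest and ossro1c between it and WT. HSFA4D was 7.5-fold lower in osdreb2b than in WT (log2 fold change -3.06, SE 0.11), and its ossro1c/WT ratio was 0.788 on library totals and 0.631 on TMM scaling.

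JAZ11 (LOC_Os03g08320, chromosome 3) encodes a JAZ protein, a repressor that is destroyed when jasmonate is perceived and whose own gene is commonly a jasmonate target. It had 20.7, 17.8 and 16.7 CPM in osdreb2b, 176.7, 167.2 and 219.5 CPM in ossro1c, and 134.0, 125.7 and 127.7 CPM in WT. The osdreb2b libraries were lowest, and all 3 ossro1c libraries lay above WT. JAZ11 was 6.98-fold lower in osdreb2b than in WT (log2 fold change -2.95, SE 0.12) and 10.15-fold lower than in ossro1c. Its ossro1c/WT ratio was 1.45 on library totals, just inside the window, and 1.17 on TMM scaling, where it was not called (edgeR adjusted p = 0.102).

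TPP2 (LOC_Os10g40550, chromosome 10) encodes trehalose-6-phosphate phosphatase, which turns trehalose-6-phosphate into trehalose. It had 13.1, 15 and 13.3 CPM in osdreb2b, 117.3, 117.9 and 115.1 CPM in ossro1c, and 94.3, 93.2 and 90.4 CPM in WT. Again the osdreb2b libraries were lowest and the ossro1c libraries all above WT. TPP2 was 6.67-fold lower in osdreb2b than in WT (log2 fold change -2.89, SE 0.08), with an ossro1c/WT ratio of 1.26 on library totals and 1.01 on TMM scaling.

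**Figure D3:**
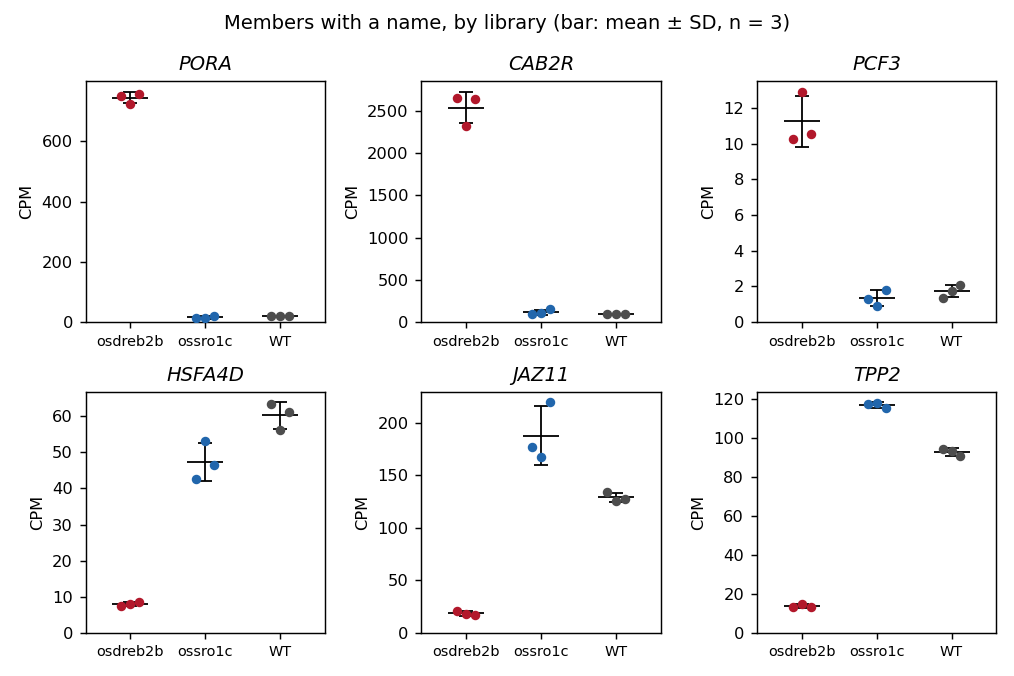
CPM on a linear scale for the 6 named members in each library (points) with the mean and SD of 3 libraries (bars), osdreb2b at the left, then ossro1c and WT. PORA, CAB2R and PCF3 are high only under the osdreb2b label among these 9 libraries. HSFA4D, JAZ11 and TPP2 are low there. On library totals ossro1c lies below WT for HSFA4D and above it for JAZ11 and TPP2. On TMM scaling the ossro1c/WT ratio was 1.17 for JAZ11 and 1.01 for TPP2, and neither was called different from WT.

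Among the higher members without a name, LOC_Os04g55159 (chromosome 4) had the most extreme ratio, and it rested on replicates 1 and 3 of osdreb2b. Its counts were 5607, 0 and 1651 in osdreb2b and 0 in every ossro1c and WT library. The group mean of 36.0 CPM was at least 2308-fold higher than the floor of 3 counts over the WT group, while the ratio of 361 is set by the 0.1 CPM added to a WT mean of 0. The adjacent locus LOC_Os04g55150, looked at after these values were seen, had 121, 165 and 158 CPM in osdreb2b, with replicate 2 highest where LOC_Os04g55159 was at 0, against 63.7, 61.8 and 64.7 CPM in ossro1c and 65.8, 75.2 and 66.2 CPM in WT. Whether reads moved between these loci in counting was not tested.

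LOC_Os04g09860 (chromosome 4) came next, with 693, 610 and 741 counts in osdreb2b, 0, 2 and 9 counts in ossro1c, and 0, 0 and 4 counts in WT. All 3 osdreb2b libraries were near 10 CPM and the other 6 near 0. Its ratio of 87.3 also leans on the added 0.1 CPM. The loci next to it in the table stayed at or below 1.99 CPM in all 9 libraries.

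The highest levels among the higher members without a name belonged to LOC_Os12g31000 and LOC_Os03g22050. LOC_Os12g31000 (chromosome 12) had 1573, 1522 and 1655 CPM in osdreb2b, 76.4, 79.4 and 78.2 CPM in ossro1c, and 89.1, 90.1 and 90.7 CPM in WT, a ratio of 17.6 for osdreb2b and 0.867 for ossro1c. LOC_Os03g22050 (chromosome 3) had 501, 469 and 466 CPM in osdreb2b, 11.2, 9.97 and 8.63 CPM in ossro1c, and 13.6, 12.6 and 13.8 CPM in WT, ratios of 35.7 and 0.747. For both, the ossro1c libraries all lay below WT, by far less than osdreb2b lay above it. On TMM scaling the ossro1c/WT ratio was 0.695 for LOC_Os12g31000 and 0.598, outside the window, for LOC_Os03g22050. Next to the second, LOC_Os03g22040, also looked at after its values were seen, had 13.5, 13.3 and 12.2 CPM in osdreb2b against 0.565, 0.988 and 0.779 CPM in ossro1c and 0.696, 0.270 and 0.324 CPM in WT, and missed selection only by its ossro1c/WT ratio of 1.66.

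Among the lower members without a name, LOC_Os08g17500 (chromosome 8) had the largest fold. It had 36, 11 and 11 counts in osdreb2b, 642, 560 and 1054 counts in ossro1c, and 581, 686 and 705 counts in WT, and was 26.4-fold lower in osdreb2b than in WT. Its ossro1c libraries overlapped WT, with replicate 3 highest. The loci beside it on both sides stayed at or below 0.185 CPM in all 9 libraries.

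LOC_Os04g37490 (chromosome 4) had 7.01, 6.61 and 7.32 CPM in osdreb2b, 96.6, 92.5 and 90.04 CPM in ossro1c, and 95.5, 100.2 and 101.4 CPM in WT, and was 14-fold lower in osdreb2b. LOC_Os02g11070 (chromosome 2) had the highest level of the 13, with 54.3, 54.02 and 58.5 CPM in osdreb2b, 293, 277 and 352 CPM in ossro1c, and 342, 351 and 312 CPM in WT. For both, ossro1c overlapped WT on library totals and osdreb2b lay apart. On TMM scaling the ossro1c/WT ratio was 0.753 for LOC_Os04g37490 and 0.736 for LOC_Os02g11070. LOC_Os02g11070 was 6.02-fold lower, the nearest to the limit, and met the rule in 5 of the 9 runs without 1 library.

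The other 39 members, 32 higher and 7 lower, are summarised here. The 32 averaged 10.2 to 332 CPM in osdreb2b (median 54.2 CPM), 1.18 to 59.4 CPM in ossro1c (median 6.36 CPM), and 1.18 to 48.2 CPM in WT (median 6.16 CPM). Their osdreb2b/WT ratios ran from 6.07 to 19.2, with a median of 7.70. The 7 averaged 0.636 to 5.18 CPM in osdreb2b (median 2.41 CPM), 8.31 to 37.7 CPM in ossro1c (median 13.4 CPM), and 10.03 to 44.8 CPM in WT (median 19.8 CPM). They were 7.29-fold to 13.8-fold lower in osdreb2b than in WT.

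The limits of selection cut through a continuous range. The higher members closest to the ratio of 6 had 6.07, 6.13 and 6.14, and the loci just short of it had 5.96, 5.94 and 5.92, the one at 5.94 being PCL1, a circadian clock gene. Among lower loci the folds just inside were 6.02, 6.67 and 6.98 and those just outside 5.77, 5.77 and 5.74, the last being HSFC2B, a class C heat shock factor. At the upper edge of the ossro1c window, higher members had 1.48, 1.47 and 1.47 and loci outside it 1.52, 1.56 and 1.56. At its lower edge, higher members had 0.676, 0.747 and 0.749 and loci outside it 0.576, 0.561 and 0.555. Lower members reached 1.45, 1.26 and 1.12 at the upper edge, against 1.51, 2.03 and 2.91 outside it, and 0.674, 0.677 and 0.683 at the lower edge, against 0.631, 0.627 and 0.613 outside it. By level, the last higher members had 10.2, 10.4 and 10.5 CPM and the first loci left out 9.99, 9.46 and 9.36 CPM. For lower loci these levels were 10.03, 10.8 and 11.5 CPM inside and 9.99, 9.74 and 6.94 CPM outside.

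The ossro1c/WT ratio was also used in the selection, so the following counts describe the members and nothing is read from them. The ossro1c and WT libraries overlapped for 25 members, all 3 ossro1c libraries were above all 3 WT libraries for 12 (44.6% of loci at 10 CPM or more), and below them for 15 (36.2%). In the fit across 26112 loci (edgeR quasi-likelihood, TMM scaling, Benjamini-Hochberg adjusted p under 0.05), ossro1c differed from WT for 29 of the 51 members tested, where the share over all loci was 60.9%. Of the higher members 1 was called higher and 18 lower in ossro1c, and of the lower members 10 were called lower and 0 higher, where 29.4% of all loci were called higher and 31.4% lower. This split depended on scaling. On raw library totals 11 of the higher members were called higher and 9 lower, and 2 of the lower members were called higher and 5 lower. Without ossro1c replicate 3, TMM scaling gave 2 higher and 20 lower among the higher members, and 10 lower among the lower ones. Raw totals moved the median log2 fold change of all loci to 0.316 for ossro1c against WT, where TMM scaling had it at -0.0014.

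The window itself was read on raw totals. On TMM scaling the ossro1c/WT ratio had a median of 0.839 over the 39 higher members and 0.676 over the 13 lower ones. It left the window, downward, for 13 of the 39 and 5 of the 13, among them PORA, PCF3 and HSFA4D, while CAB2R, JAZ11 and TPP2 stayed inside. A further condition, the osdreb2b/WT ratio, was missed on TMM scaling by 8 of the higher members and by 0 of the lower ones.

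**Figure D4:**
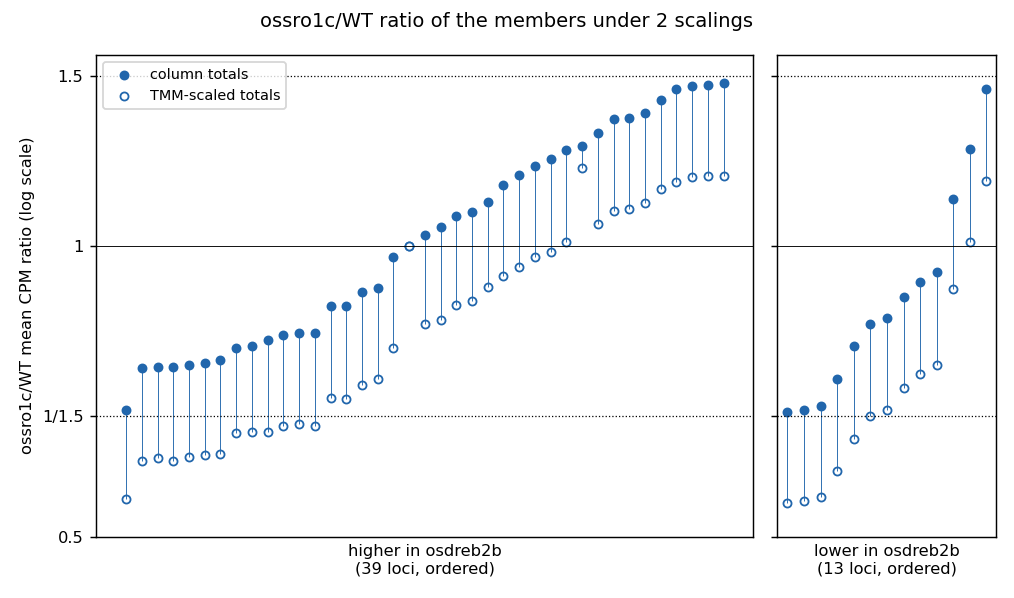
The mean ossro1c/WT ratio (log axis) of each member, ordered along the horizontal axis, on column totals (filled) and on TMM-scaled totals (open), with the 39 higher members at the left, the 13 lower ones at the right and dotted lines at 1/1.5 and 1.5. The open points lie below the filled ones except for LOC_Os04g55159, which is at 1 on both, and 13 higher and 5 lower members fall under the lower line.

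The pathways around the named members were then set beside them, using genes whose names passed the same check. Those given with values here were picked after their values were seen. In chlorophyll synthesis 10 of 10 loci were higher in osdreb2b than in WT, PORA among them, with a median log2 fold change of 1.38 where the median of all tested loci was 0.03 and 29.9% were called higher. The count was 10 of 10 on raw totals and upper-quartile scaling as well. CHLH and CHLI, subunits of magnesium chelatase, had osdreb2b/WT ratios of 4.38 and 3.05, DVR, a divinyl reductase, 2.95, and CAO, which makes chlorophyll b, 2.62. In ossro1c the ratio to WT was 1.92 for CHLH, 1.51 for CHLI, 0.961 for DVR and 1.22 for CAO. Over the 10 loci, 5 were higher and 4 lower in ossro1c than in WT on TMM scaling. The shares of all loci were 29.4% higher and 31.4% lower. Raw totals gave 6 higher and 2 lower. PORA was the only one of the 10 to pass the ratio of 6.

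PORB (LOC_Os10g35370), the other protochlorophyllide oxidoreductase, had 347, 350.1 and 337 CPM in osdreb2b, 35.7, 29.6 and 36.6 CPM in ossro1c, and 88.02, 86.1 and 88.7 CPM in WT. It was higher in osdreb2b (log2 fold change 1.83, SE 0.09, edgeR adjusted p = 6.36e-10) and lower in ossro1c (log2 fold change -1.69, adjusted p = 1.77e-09). PORA and PORB are close copies, and reads may be shared between them. The antenna gene CAB1R (LOC_Os09g17740) had the same order of groups, with 2020, 1809 and 1987 CPM in osdreb2b, 58.6, 56.5 and 82.9 CPM in ossro1c, and 302.5, 293 and 286 CPM in WT. Its osdreb2b/WT ratio of 6.597 passed the limit, and its ossro1c/WT ratio of 0.225 put it outside the window. Across antenna, electron transport and Calvin cycle genes, 10 of 10 checked loci were higher in osdreb2b, with a median log2 fold change of 1.3, where 29.9% of all loci were called higher. In ossro1c 6 of these 10 were higher than in WT and 2 lower, with a median of 0.68 (29.4% and 31.4% of all loci). The full lists, with loci whose names were not checked, had lower ossro1c medians. These were -0.08 for 15 antenna loci, 0.08 for 14 electron transport loci and 0.53 for 18 Calvin cycle and photorespiration loci.

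Among 13 JAZ genes, 3 were higher, 7 lower and 3 not called in osdreb2b against WT, JAZ11 being one of the 7 (median log2 fold change -0.60, with 29.6% of all loci called lower). Raw totals gave 4 higher and 7 lower. In ossro1c 8 of the 13 were higher than in WT and 1 lower, with a median of 0.90. Over all loci 29.4% were called higher in ossro1c and 31.4% lower. Raw totals gave 11 higher and 0 lower, but they also moved the median of all loci upward, to 0.316. JAZ9, JAZ11 and JAZ10 lie next to each other on chromosome 3 and may share reads. JAZ9 (LOC_Os03g08310) had 1.65, 2.81 and 2.52 CPM in osdreb2b, 103.2, 103.3 and 133.9 CPM in ossro1c, and 19.5, 20.6 and 22.1 CPM in WT. It was 8.57-fold lower in osdreb2b, and its ossro1c/WT ratio of 5.45 kept it out. JAZ10 (LOC_Os03g08330) was 2.101-fold lower in osdreb2b, with an ossro1c/WT ratio of 4.27. JAZ12 (LOC_Os10g25290) was just short of the limit, being 5.46-fold lower in osdreb2b (log2 fold change -2.59, edgeR adjusted p = 1.44e-10) with an ossro1c/WT ratio of 1.28.

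Among 20 heat shock factors, 4 were higher, 11 lower and 5 not called in osdreb2b against WT, and HSFA4D was the only member of the 52 (median log2 fold change -0.31, with 29.9% of all loci called higher and 29.6% lower). In ossro1c 6 of the 20 were higher than in WT and 12 lower, with a median of -0.67 (29.4% and 31.4% of all loci). HSFC2B was 5.74-fold lower in osdreb2b (log2 fold change -2.68, edgeR adjusted p = 6.76e-10) with an ossro1c/WT ratio of 1.41. HSFA3, a class A factor, was 5.31-fold lower in osdreb2b and had an ossro1c/WT ratio of 0.402.

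TPP1 (LOC_Os02g44230), the second checked trehalose-6-phosphate phosphatase, went the other way from TPP2. It had 365, 362 and 360.1 CPM in osdreb2b, 253.5, 238 and 259 CPM in ossro1c, and 28.2, 31.6 and 28.1 CPM in WT. Its ratio to WT was 12.3 in osdreb2b and 8.52 in ossro1c, so it was high under both mutant labels.

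**Figure D5:**
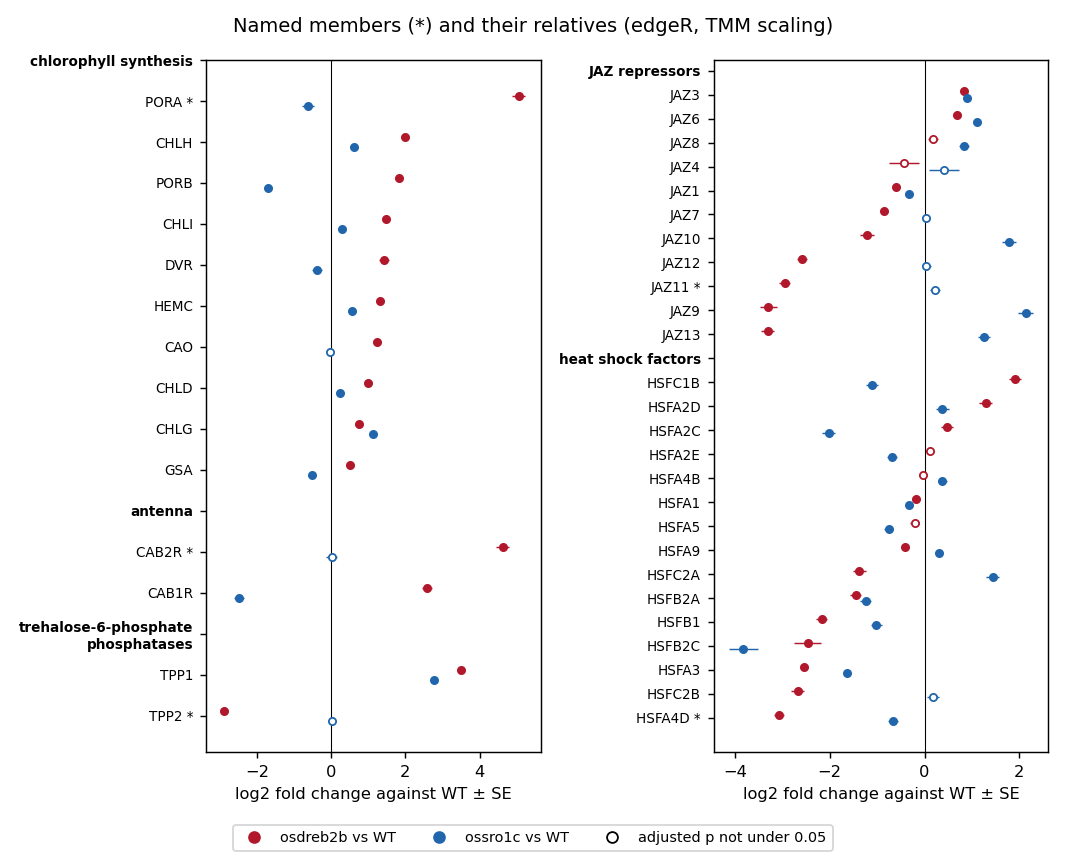
Log2 fold change against WT with its SE (edgeR, TMM scaling) for checked genes with a genotype mean of at least 10 CPM, osdreb2b in red and ossro1c in blue, open where the adjusted p was not under 0.05, with members starred. Chlorophyll synthesis genes lie above 0 in osdreb2b, JAZ genes and heat shock factors lie on both sides, and CAB2R, TPP2 and JAZ11 pair a large osdreb2b value with an ossro1c value of 0.02, 0.01 and 0.22.

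Along the genome the members were spread over all 12 chromosomes. Chromosome 3 held 7 of the 39 higher members (17.95%, where it held 14.7% of the loci at 10 CPM or more) and chromosome 4 held 6 (15.4%, where it held 8.47%). PORA and LOC_Os04g58210, the locus next to it, were both higher members, and the second is described for its place, after its values were seen. LOC_Os04g58210 had 20.9, 23.6 and 18.3 CPM in osdreb2b, 4.68, 4.17 and 4.59 CPM in ossro1c, and 3.08, 3.59 and 2.39 CPM in WT, a ratio of 6.74 for osdreb2b and 1.47 for ossro1c. Of 23 loci at 10 CPM or more that adjoin a higher member, 11 (47.8%) were at least 2-fold higher in osdreb2b, where 18.7% of all others were. Beside lower members 2 of 11 (18.2%) were at least 2-fold lower, where 16.1% of all others were. The strand of counting is not stated, so reads of overlapping neighbours cannot be told apart.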

How the data were processed

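Per the labels' protocols, TRIzol was used for total RNA and a SMARTER kit for the mRNA libraries. The authors deposited a table of raw read counts per locus for 9 libraries of 58398026 to 69336224 counts. Tools named, per the submitters' processing notes and without their roles, are DESeq2, StringTie 2.1.4, HISAT2 2.2.1 and fastp 0.23.4. Strand setting, annotation and genome build: not given in the sources used here.

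CPM was computed on raw column totals. Tests used edgeR 4.0.16 in R 4.3.3 (robust quasi-likelihood, TMM scaling, filterByExpr, all 9 libraries in 1 fit, 26112 loci, Benjamini-Hochberg adjusted p under 0.05), and the code was tested on simulated data. DESeq2 1.42.0, other scalings and filters, single libraries left out and a replicate block were alternatives. The members and gene lists were chosen with earlier results of these data known.

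Names were 721 pairs of locus and symbol from general knowledge, of which 456 had a RefSeq gene (ASM3414082v1) of that symbol on the same chromosome within 1 Mb of the place interpolated from the locus order. The JAZ10 and JAZ11 aliases were corrected, and PCF3 was added, after the tables were seen. Members named are those with a checked name, and, by identifier, the 2 most extreme by ratio and the 2 highest by level in each direction among the rest. Loci with no checked name have no function given, and no sequence is printed.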

Additional observations from a re-analysis of the deposited data

How the results depend on the processing

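Membership depended on the limits. Against 39 higher and 13 lower members, a ratio of 4 gave 100 and 60, a ratio of 8 gave 21 and 7, the narrower ossro1c window tried gave 18 and 6, and a window of 2 gave 68 and 34. A level of 20 CPM gave 8 lower members and a level of 5 CPM gave 19. TMM scaling gave 31 higher members, 22 of them shared, and 20 lower, 8 of them shared. DESeq2 size factors gave 31 and 19. Adding 1 CPM to each mean in place of 0.1 CPM gave 37 higher members, 27 of them shared, and 12 lower, 12 of them shared. Leaving out 1 library gave 38 to 41 higher and 11 to 15 lower members, and 20 higher and 7 lower members were kept in all 9 such runs. Counting the added 0.1 CPM toward the level, an alternative chosen after seeing the data, gave 40 and 14. Loci called in osdreb2b against WT numbered 15562, with 14271 to 16962 when 1 library was left out, in ossro1c against WT 15892, with 14659 to 16452, and in osdreb2b against ossro1c 12147, with 10713 to 13097. On raw totals ossro1c against WT split into 10264 higher and 5971 lower, where TMM gave 7685 and 8207, and osdreb2b against ossro1c into 4398 and 8054, where TMM gave 5974 and 6173. With a replicate block the calls were 15264, 15666 and 11821 in the same order. Same-numbered libraries correlated at -0.0472 to 0.147 in their deviations, so the numbers were not taken as pairing. The osdreb2b against WT log2 fold changes of 14 loci given by name or identifier, OsSRO1c and OsDREB2B among them, kept their direction and call under the alternatives run. The rest of the 14 are members selected on this contrast, so nothing is read from their stability. The calls of the members in ossro1c against WT did not all keep theirs, as given for raw totals in the results. Levels near 0 (LOC_Os04g55159, LOC_Os04g09860) limit those ratios, and the size of the added value also decided whether other loci were members.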

Other observations

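Among 305 checked genes of the lists with a mean of at least 10 CPM, 18 had an osdreb2b/WT ratio of at least 6. For these, ossro1c was inside the window for 3, above it for 14 and below it for 1. Of all 12605 loci 2.22% passed that ratio, with 13.9% of those inside the window, 78.6% above it and 7.5% below it. The 14 include the cold-response factors DREB1A, DREB1B and DREB1H and the phosphate-sensing SPX2, SPX3 and SPX5, all picked out after their values were seen. A further 17 had a ratio of at most 1/6, with ossro1c inside the window for 3, above it for 2 (JAZ9 and JAZ13) and below it for 12. Of all loci 3.28% did, with 3.14% of those inside the window, 1.45% above it and 95.4% below it. JAZ13 averaged 2.80 CPM in osdreb2b, 74.2 CPM in ossro1c and 25.02 CPM in WT.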
